A study of Mus musculus with 6 samples.

Results

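The 10 genes described here encode the transcription factors that specify and maintain haematopoietic stem cells (HSCs): *Hlf*, *Mecom*, *Meis1*, *Gata2*, *Gfi1*, *Gfi1b*, *Runx1*, *Tal1*, *Lmo2* and *Erg*. They were taken by symbol from a table of 46959 rows, in which each was found on 1 row, and their RNA was compared between HSCs of MaeaCsf1r-Cre mice and of control littermates. *Maea* encodes an E3 ubiquitin ligase subunit. In MaeaCsf1r-Cre mice its floxed alleles were deleted by *Csf1r*-iCre, a transgene backcrossed onto C57BL/6 whose *Csf1r* promoter is best known for targeting mononuclear phagocytes, so that macrophages of these mice carry the deletion as well as HSCs. The control group is labelled only as control, without its alleles. The mice were adults, 8 weeks old in the series' design text. There were 3 control and 3 MaeaCsf1r-Cre libraries, each made from about 2000 HSCs sorted from the bone marrow as lineage-negative, Sca-1+, c-kit+, CD150+ and CD48- cells and pooled from 2 mice. The replicates are separate pools, although the labels do not say from which litters they came. In such bulk samples fewer cells of a type and less RNA per cell cannot be told apart.

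These factors act together on shared enhancers. GATA2 binds GATA motifs, TAL1 binds E-boxes as a dimer with E proteins, LMO2 and LDB1 bridge them, RUNX1 binds DNA with CBFB, ERG is an ETS factor, and MEIS1 binds with HOXA partners. GFI1 and GFI1B are zinc finger repressors that recruit LSD1 (encoded by *Kdm1a*) and CoREST, MECOM is a zinc finger protein needed for long-term HSCs, and HLF is a PAR bZIP factor that marks the most primitive HSCs and whose RNA is lost early in differentiation.

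The targeted gene was checked first. *Maea* was at 108, 116 and 123 CPM (reads of the gene scaled to a fixed total per library) in control replicates 1, 2 and 3 and at 76.9, 88.6 and 100.98 CPM in MaeaCsf1r-Cre replicates 1, 2 and 3, so the groups did not overlap (785 genes, or 6.06% of all tested, were lower in this way). Its log2 fold change of -0.39 (standard error 0.13) had an adjusted p of 0.967 (limma's moderated test, Benjamini-Hochberg over all genes tested). Reads of deleted and retained exons are counted together in these values. *Csf1r*, whose promoter drives Cre, was at 7.89, 3.39 and 2.31 CPM in control and at 0.369, 2.18 and 0.141 CPM in MaeaCsf1r-Cre libraries, with no overlap.

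The cells were also checked against markers of HSCs and of other blood cells, as summed CPM per library. The 12 HSC markers, which include *Kit*, *Slamf1*, *Fgd5* and *Tek*, all passed the filter on low values, and their sum was 1310 to 2012 CPM in control and 897 to 1608 CPM in MaeaCsf1r-Cre libraries. Erythroid markers summed to 957 to 4209 and 1769 to 4528 CPM, mostly from *Car1*, megakaryocyte markers to 226 to 992 and 296 to 610 CPM, granulocyte precursor markers to 76.7 to 293 and 76.04 to 156 CPM, and endothelial markers to 219 to 361 and 122 to 419 CPM. Lymphoid-primed markers summed to 72.2 to 209 and 63.03 to 70.5 CPM, and macrophage markers to 63.6 to 145 and 37.5 to 98.9 CPM. Much of the macrophage sum came from *Slc40a1* (28.4 to 76.5 and 27.2 to 70.9 CPM) and, in some libraries, *Vcam1* (2.60 to 28.5 and 0 to 30.0 CPM). The macrophage marker *C1qb* was at 3.79 to 8.98 CPM in control and at or below 0.474 CPM in MaeaCsf1r-Cre libraries. Sums were 17.0 to 28.0 and 13.6 to 24.7 CPM for B cells, nearly all from *Cd79b* while *Pax5* and *Ms4a1* were listed at 0, 2.46 to 4.29 and 0.886 to 3.02 CPM for T cells, 4.995 to 6.07 and 4.10 to 18.8 CPM for mast cells and basophils, and 25.7 to 38.5 and 19.1 to 49.5 CPM for stroma. The part of these other cell types in the results below was not tested.

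**Figure D1:**
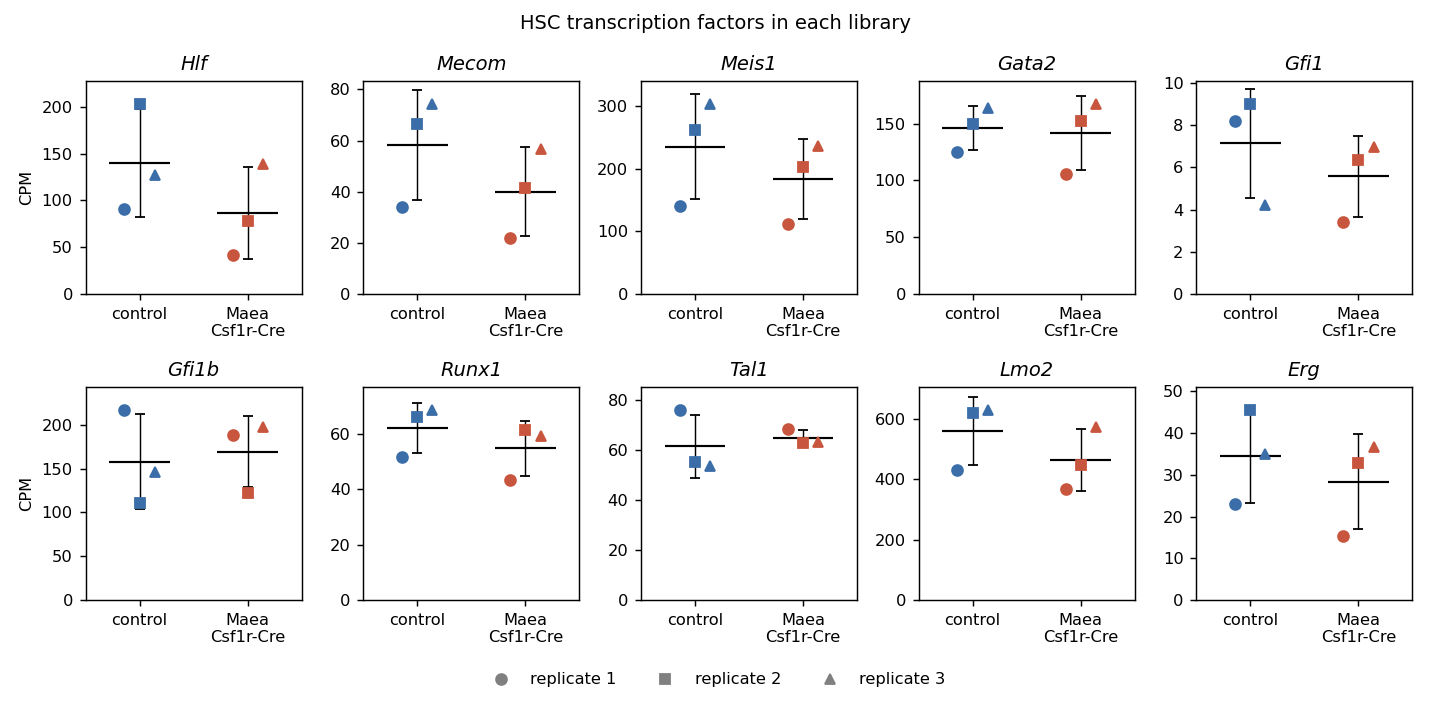
CPM of each of the 10 transcription factors (y axis, from 0, separate scale per gene) in control and MaeaCsf1r-Cre libraries (x axis), with symbols for the replicate number, horizontal bars for the group mean and whiskers for the SD (n = 3). The ranges of the groups overlapped for 10 of the 10 genes, and replicate 1 (circles) was the lowest library of both groups for 7 of them.

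*Hlf* (chromosome 11, 90336536 to 90390895 on GRCm38) had the lowest ratio of MaeaCsf1r-Cre to control. It was at 90.6, 203 and 127 CPM in control replicates 1, 2 and 3 and at 41.5, 78.6 and 139 CPM in MaeaCsf1r-Cre replicates 1, 2 and 3. It was thus below its same-numbered control in replicates 1 and 2 and above it in replicate 3, and the groups overlapped. The means were 140.3 ± 57.4 and 86.3 ± 49.1 CPM (SD, n = 3 each). On the log2 scale the difference was -0.78 (standard error 0.44, 95% confidence interval -1.79 to 0.23). The adjusted p was 0.967 (limma), and 0.275 in the fit where the replicate number entered as a block.

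*Mecom* (chromosome 3, 29951296 to 30548008) was at 33.9, 66.6 and 74.4 CPM in control and at 21.9, 41.4 and 56.9 CPM in MaeaCsf1r-Cre replicates 1, 2 and 3. Each MaeaCsf1r-Cre library lay below the control of the same number, but not below control replicate 1 in every case. The log2 fold change was -0.55 (standard error 0.39, limma adjusted p = 0.967), and with the replicate block its standard error was 0.11 and the adjusted p 0.198, the lowest among the 10 genes.

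*Meis1* (chromosome 11, 18879817 to 19018985) was at 141, 261 and 304 CPM in control and at 112, 203 and 237 CPM in MaeaCsf1r-Cre replicates. The same-numbered ratios were close to each other, at 0.796, 0.775 and 0.780, while replicates 1 and 3 of the control group differed by more than either did from its MaeaCsf1r-Cre counterpart. The log2 fold change was -0.35 (standard error 0.35, limma adjusted p = 0.967), and the adjusted p was 0.218 with the replicate block.

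*Lmo2* (chromosome 2, 103957986 to 103981878), the bridging factor, was at 430.1, 620.5 and 629.7 CPM in control and at 368, 449 and 573 CPM in MaeaCsf1r-Cre replicates. It was lower in 3 of 3 same-numbered pairs, with overlapping groups and a log2 fold change of -0.27 (standard error 0.21, limma adjusted p = 0.967, and 0.296 with the replicate block). *Runx1* (chromosome 16, 92601466 to 92826149) was at 51.9, 66.0 and 68.7 CPM in control and at 43.6, 61.6 and 59.3 CPM in MaeaCsf1r-Cre replicates, again lower in 3 of 3 pairs, with a log2 fold change of -0.18 (standard error 0.18). *Erg* (chromosome 16, 95359169 to 95586593) was at 22.9, 45.4 and 34.9 CPM in control and at 15.5, 32.9 and 36.7 CPM in MaeaCsf1r-Cre replicates, lower in 2 of 3 pairs, with a log2 fold change of -0.31 (standard error 0.36). *Erg* is also an endothelial gene, and the endothelial markers *Cdh5* (5.82, 0.278 and 13.0 CPM in control, 0.624, 0.566 and 22.1 CPM in MaeaCsf1r-Cre replicates) and *Kdr* (12.4, 2.52 and 32.6 CPM, and 2.33, 2.49 and 33.4 CPM) were highest in replicate 3 of both groups. *Erg* was highest in replicate 2 of the control and in replicate 3 of the MaeaCsf1r-Cre group, and the 8 endothelial markers summed to 219, 247 and 361 CPM in control and 122, 184 and 419 CPM in MaeaCsf1r-Cre replicates. Of these 8 markers 3, *Tie1*, *Pecam1* and *Emcn*, were lowest in replicate 1 of both groups, as *Erg* was. *Tie1* was at 57.4, 113.2 and 113.0 CPM in control and at 32.3, 78.1 and 94.0 CPM in MaeaCsf1r-Cre replicates. The part of the endothelial markers in the level of *Erg* was not tested.

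*Gata2* (chromosome 6, 88193891 to 88207032) had the log2 fold change closest to 0, with 125, 149 and 164 CPM in control and 105, 152 and 167 CPM in MaeaCsf1r-Cre replicates. It was -0.06, with a 95% confidence interval of -0.51 to 0.38 that leaves room for a difference in either direction. *Tal1* (chromosome 4, 115056426 to 115071755) was at 76.1, 55.1 and 53.6 CPM in control and at 68.7, 62.9 and 63.4 CPM in MaeaCsf1r-Cre replicates, a log2 fold change of 0.09 with an interval of -0.27 to 0.46. For *Gfi1b* (chromosome 2, 28609450 to 28621982), a repressor used by HSCs and by erythroid and megakaryocyte precursors, the values were 217, 110.3 and 147 CPM in control and 188, 122 and 197 CPM in MaeaCsf1r-Cre replicates, and the log2 fold change was 0.12 (interval -0.50 to 0.75). Its relative *Gfi1* (chromosome 5, 107716657 to 107726036) was at 8.22, 9.01 and 4.21 CPM in control and at 3.41, 6.36 and 6.99 CPM in MaeaCsf1r-Cre replicates. Its log2 fold change was -0.30, with an interval of -1.07 to 0.47, and the fewest reads behind a value of any of the 10 factors were about 144, for *Gfi1* in control replicate 3.

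**Figure D2:**
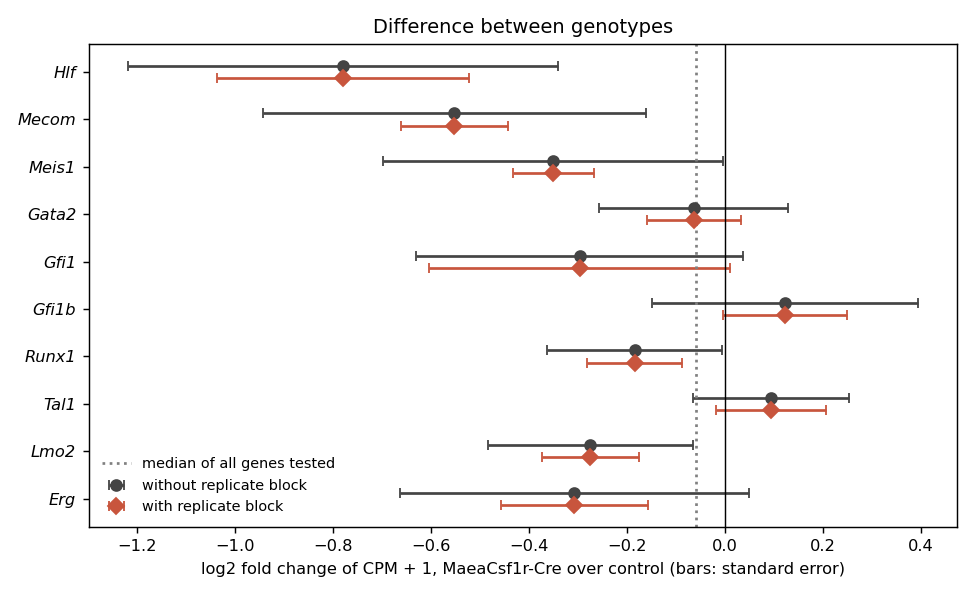
Log2 fold change of CPM + 1 (x axis, MaeaCsf1r-Cre over control) for each factor (y axis), with standard errors, without (circles) and with (diamonds) the replicate number as a block. The dotted line is the median of all 12955 genes tested, -0.06; 8 genes lie below 0 and 2 above it, and the block narrowed the bars of Mecom from 0.39 to 0.11.

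Over the 10 genes, 10 passed the filter on low values (CPM of 1 or more in 3 or more libraries), and 0 had an adjusted p under 0.05 in limma's test, where 1 of 12955 genes, or 0.00772%, passed. The adjusted p was 0.967 to 0.981, and 0 of the 10 had an unadjusted p under 0.05, against 3.99% of all genes. With the replicate block 0 passed (adjusted p 0.198 to 0.803) and 4, *Hlf*, *Mecom*, *Meis1* and *Lmo2*, had an unadjusted p under 0.05, all lower, against 10.8% of all genes lower at that p. The mean log2 value was lower in MaeaCsf1r-Cre HSCs for 8 of 10 genes, against 60.9% of all genes, and the median log2 fold change was -0.29, against -0.06 over all genes. *Mecom*, *Meis1*, *Runx1* and *Lmo2* were lower in 3 of 3 same-numbered pairs, which holds for 23.5% of all genes, and the groups failed to overlap for 0 of the 10, against 8.55%. The median depended on single libraries: it was -0.03 without MaeaCsf1r-Cre replicate 1, -0.13 without control replicate 2, -0.16 without control replicate 3 and -0.45 without MaeaCsf1r-Cre replicate 3. So did the single values: without MaeaCsf1r-Cre replicate 1 the log2 fold change was -0.34 for *Hlf*, -0.18 for *Mecom*, -0.12 for *Lmo2* and -0.03 for *Meis1* and *Runx1*, and without control replicate 1 it was -0.90 for *Mecom*, -0.68 for *Meis1*, -0.45 for *Lmo2* and -0.31 for *Runx1*. Without replicate 1 of both groups, an alternative chosen after seeing the data, it was -0.17 and 6 of the 10 were lower.

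Transcript length moved with the difference between the groups. Across 12449 genes, which are not independent replicates, the log2 fold change had a Spearman rho of -0.314 with the length of the longest transcript, and its median went from 0.04 in the shortest to -0.15 in the longest of 4 equal classes of genes, the longest holding 4 of the 10 (*Hlf*, *Mecom*, *Meis1* and *Runx1*). After correction for length with a loess curve, the median of the 10 was -0.18, against 0.03 over all genes, and *Gata2* had a value of 0.06. Of the 4 in the longest class, *Hlf* then had -0.61, *Mecom* -0.39, *Meis1* -0.16 and *Runx1* -0.016. With the replicate block added, the unadjusted p of *Meis1* was 0.109 (limma). Those of *Hlf*, *Mecom* and *Lmo2* were 0.026, 0.0048 and 0.049 (limma). The part of length in the value of a single factor was not tested.

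Libraries of the same number resembled each other across the groups. In both groups replicate 1 was the lowest library for *Hlf*, *Mecom*, *Meis1*, *Gata2*, *Runx1*, *Lmo2* and *Erg*, 7 of 10 genes against 28.7% of all genes, and the highest for *Tal1*, 1 of 10 against 23.5%. *Mecom* in replicate 1 was 0.481 of the mean of replicates 2 and 3 in control and 0.446 of it in MaeaCsf1r-Cre HSCs. The same ratio was 0.5003 and 0.512 for *Meis1*, 0.570 and 0.445 for *Erg*, and 0.549 and 0.382 for *Hlf*. An F test of the replicate number, chosen after seeing the data, gave limma adjusted p values of 0.030 for *Mecom*, 0.028 for *Meis1* and 0.044 for *Erg*, 3 of the 10 genes against 5.59% of all genes. At an unadjusted p under 0.05 these were 8 of the 10, against 29.7% of all genes. *Hlf* (0.097), *Runx1* (0.091), *Gata2* (0.069), *Lmo2* (0.058) and *Gfi1b* (0.054) missed the adjusted threshold. The labels do not say what the replicate number marks. Control replicate 1 was the shallowest and MaeaCsf1r-Cre replicate 1 the deepest of the 6 libraries, with 32966000 and 60933000 reads behind the scaling, and the part of depth was not tested.

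**Figure D3:**
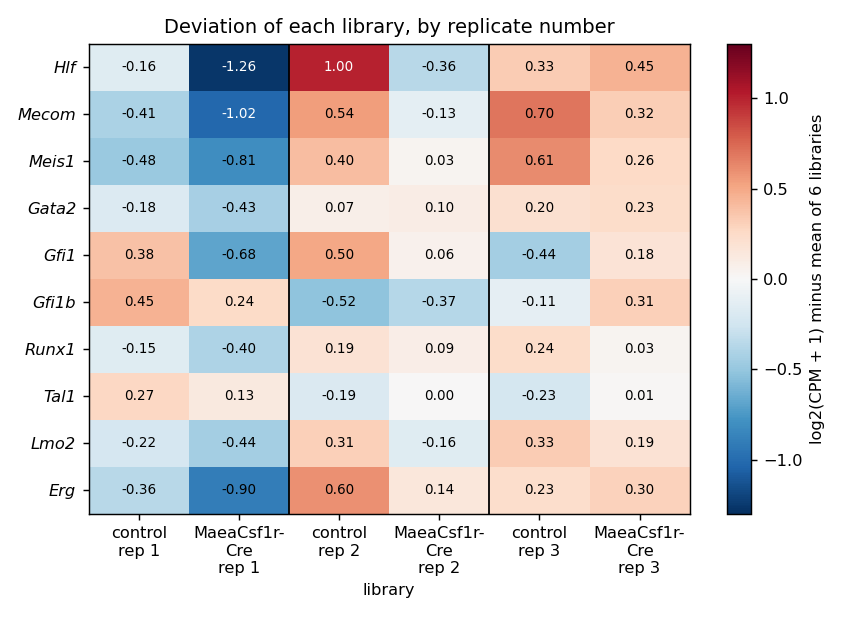
Deviation of log2(CPM + 1) from the mean of the 6 libraries (colour and printed value) for each factor (rows) in each library (columns, ordered by replicate number). Both replicate 1 columns are negative for 7 genes, from -0.15 to -1.26, and positive for Gfi1b and Tal1, from 0.13 to 0.45.

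Markers of HSCs and part of the erythroid, granulocyte precursor and endothelial markers also differed between replicate numbers. The summed HSC markers were 1310, 2012 and 1910 CPM in control and 897, 1346 and 1608 CPM in MaeaCsf1r-Cre replicates 1, 2 and 3. Replicate 1 was lowest in both groups for 10 of 12 of these genes, against 28.7% of all genes. The erythroid sum was 4209, 1521 and 957 CPM and 4528, 1769 and 2130 CPM, highest in replicate 1 and mostly from *Car1*. Replicate 1 was highest in both groups for 4 of the 9 erythroid markers, against 23.5% of all genes. The globin genes *Hba-a1*, *Hba-a2* and *Hbb-bt*, whose near-identical copies can share reads, were highest in replicate 1 of the control group, at 30.5, 16.4 and 38.8 CPM. In the MaeaCsf1r-Cre group they were lowest in replicate 1, at 10.5, 6.85 and 16.2 CPM. *Gata1*, the erythroid and megakaryocytic GATA factor, was at 191, 84.2 and 98.8 CPM in control and at 213, 120.0 and 165 CPM in MaeaCsf1r-Cre replicates (replicate number, limma adjusted p = 0.037). *Epor* (0.030) and *Klf1* (0.042) also differed between replicate numbers and were highest in replicate 1, as was *Cd48* (33.5, 19.4 and 12.4 CPM, and 46.5, 22.1 and 15.8 CPM, adjusted p = 0.030), the gene of a surface protein that the sort was meant to exclude. *Elane* was highest in replicate 1 too (36.9, 6.82 and 0.029 CPM, and 22.1, 6.82 and 0.203 CPM, limma adjusted p = 0.003). So was *Mpo* (181, 96.8 and 26.4 CPM, and 90.4, 51.7 and 3.77 CPM, 0.030). *Prtn3*, the other granulocyte precursor marker tested, did not pass (0.386). Of the 8 endothelial markers 5 had an adjusted p under 0.05 for the replicate number, against 5.59% of all genes. In replicate 1 of both groups 0 of the 8 were highest and 3 were lowest. Whether the RNA of these other cell types had a part in the levels of *Mecom*, *Meis1* and *Erg* was not tested.

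**Figure D4:**
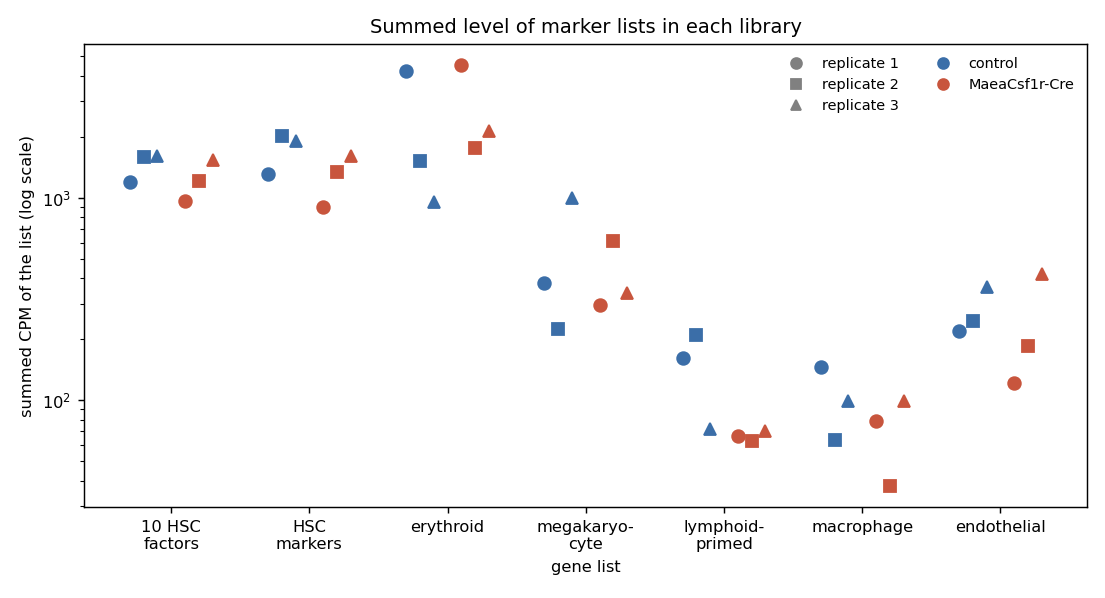
Summed CPM (y axis, log scale) of the 10 HSC factors and of 6 marker lists (x axis) in each library, blue for control and red for MaeaCsf1r-Cre, with symbols for the replicate number. In replicate 1 (circles) the sums of the factors and of the HSC markers are the lowest of each group and the erythroid sum is the highest.

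Promoter windows of *Hlf*, *Meis1* and *Erg*, low in replicate 1, are shown beside windows of *Gfi1b* and *Tal1*, above their 6-library mean in replicate 1 of both groups, to let the binding motifs of the network be read in them. They are the bases just before an annotated start in RefSeq (GRCm38.p6), 5′ to 3′ on the gene's strand, and capitals mark a motif on either strand: GATAA (or TTATC) for GATA factors, CCGGAA for ETS, TGTGGT for RUNX and TGACAG (or CTGTCA) for MEIS factors.
Hlf, chr11:90390918-90391167, minus strand: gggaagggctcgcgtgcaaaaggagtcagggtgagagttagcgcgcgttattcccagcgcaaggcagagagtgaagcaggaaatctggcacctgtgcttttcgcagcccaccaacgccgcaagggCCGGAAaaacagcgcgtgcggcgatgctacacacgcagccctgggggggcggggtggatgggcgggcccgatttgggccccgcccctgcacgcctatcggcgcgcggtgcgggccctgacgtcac
Meis1, chr11:19018986-19019219, minus strand: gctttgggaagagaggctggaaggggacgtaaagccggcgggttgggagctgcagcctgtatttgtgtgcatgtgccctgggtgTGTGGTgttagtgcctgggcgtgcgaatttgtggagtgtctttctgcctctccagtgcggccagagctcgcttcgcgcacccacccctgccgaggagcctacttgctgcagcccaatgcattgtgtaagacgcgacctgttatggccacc
Erg, chr16:95459349-95459598, minus strand: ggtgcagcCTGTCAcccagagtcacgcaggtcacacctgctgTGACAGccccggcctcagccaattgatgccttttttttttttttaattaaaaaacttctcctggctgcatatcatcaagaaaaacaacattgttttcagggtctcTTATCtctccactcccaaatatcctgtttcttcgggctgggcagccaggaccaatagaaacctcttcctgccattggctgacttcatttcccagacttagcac
Gfi1b, chr2:28621983-28622232, minus strand: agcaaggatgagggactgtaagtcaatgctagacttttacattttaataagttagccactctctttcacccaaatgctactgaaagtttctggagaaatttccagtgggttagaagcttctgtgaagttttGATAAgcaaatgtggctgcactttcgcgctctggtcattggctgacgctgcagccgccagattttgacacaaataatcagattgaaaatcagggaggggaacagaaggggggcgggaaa
Tal1, chr4:115056176-115056425, plus strand: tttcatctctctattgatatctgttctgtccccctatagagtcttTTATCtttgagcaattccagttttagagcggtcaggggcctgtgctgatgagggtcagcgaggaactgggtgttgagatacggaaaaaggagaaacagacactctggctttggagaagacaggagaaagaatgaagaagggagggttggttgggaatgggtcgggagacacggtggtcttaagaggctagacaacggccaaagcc
The table held 16 windows of 250 bases for 9 of the 10 genes, and *Lmo2* had none. For *Erg* and *Tal1* the window shown was picked because it holds matches. Their other windows, not shown, hold none of the motifs. GATAA lay in 5 of the 16 windows, of *Erg*, *Gfi1b*, *Mecom* and *Tal1*, at most 205 bases before the start. It lay in 22.6% of all 32851 windows. CCGGAA lay in 3 of the 16, of *Hlf*, *Meis1* and *Runx1* (12.0% of all windows). In *Meis1* it lay in bases that overlap the first exon and are left out above. TGTGGT lay in 1, of *Meis1* (14.0%), and TGACAG in 2, of *Erg* and *Mecom* (15.9%). The E-box CAGATG lay in 1, of *Mecom* (14.4%), and the E-box CAGCTG in 0 of the 16 (13.0%). No match in the windows shown overlaps another. These are matches of letters, not sites of binding.

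Compared per kilobase of the longest annotated protein-coding transcript, the levels of the factors differed widely. Which transcript of each gene these HSCs used was not tested. In control HSCs *Lmo2* came first with a mean of 328 CPM per kilobase, then *Gfi1b* with 86.6, *Gata2* with 40.9, *Meis1* with 31.2, *Hlf* with 24.9, *Tal1* with 14.6, *Runx1* and *Erg* with 10.6 each, *Mecom* with 10.2 and *Gfi1* with 2.499. The steps from *Lmo2* to *Gfi1b*, from *Gfi1b* to *Gata2*, from *Tal1* to *Runx1* and from *Mecom* to *Gfi1* showed no overlap between the 3 libraries, whereas the other neighbours in this order overlapped. In MaeaCsf1r-Cre HSCs the order was the same except that *Tal1* (15.4) and *Hlf* (15.3) traded places, within the spread of *Hlf*, and the steps below *Lmo2*, below *Gfi1b* and above *Gfi1* were those without overlap.

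Ratios of a factor to its paralogue or partner within a library do not depend on the scaling, except through the 1 CPM added to both genes. That addition weighs most on low genes such as *Gfi1*. Of 8 ratios compared 7 are given here, with an exact permutation test over the 20 labellings, two-sided, whose smallest possible p is 0.1. The *Gata2* to *Gata1* ratio, on the log2 scale, was -0.61, 0.82 and 0.72 in control and -1.01, 0.34 and 0.02 in MaeaCsf1r-Cre replicates 1, 2 and 3, lower in 3 of 3 pairs (difference -0.53, exact p = 0.5, adjusted p = 0.8). *Lmo2* to *Ldb1* was lower in 3 of 3 pairs as well (difference -0.20, exact p = 0.2, adjusted p = 0.8), with control values of 2.66, 2.93 and 2.93 and MaeaCsf1r-Cre values of 2.47, 2.56 and 2.89. *Mecom* to *Prdm16*, its paralogue, had a difference of -0.02, with 1.39, 1.31 and 1.74 in control and 1.61, 1.28 and 1.48 in MaeaCsf1r-Cre replicates. The differences for *Gfi1b* to *Gfi1* (0.42), *Tal1* to *Lyl1* (0.27), *Erg* to *Fli1* (-0.12) and *Runx1* to *Cbfb* (-0.01) had an exact p of 0.5 to 1.0 and an adjusted p of 0.8 to 1.0.

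**Figure D5:**
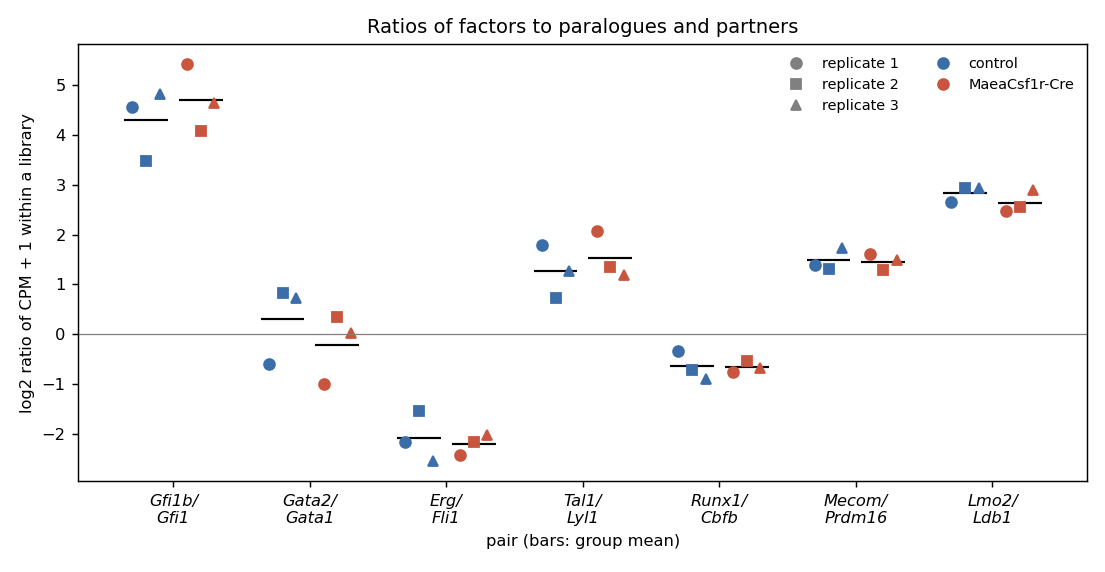
Log2 ratio of CPM + 1 of each factor to a paralogue or partner (x axis) in each library (y axis), blue for control and red for MaeaCsf1r-Cre, with bars for group means. The groups overlap for the 7 ratios shown, and the ratio of Gata2 to Gata1 is below 0 in replicate 1 of both groups.

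Paralogues, partners, co-repressors and target genes of the factors were read beside them. Of 18 paralogues 14 were tested and 12 were lower in MaeaCsf1r-Cre HSCs, against 60.9% of all genes. In limma's test 0 passed, with a median log2 fold change of -0.22. The smallest p belonged to *Dbp*, a PAR bZIP factor like HLF (11.8 ± 3.21 against 7.83 ± 2.65 CPM), to *Runx2* (28.6 ± 13.3 against 17.2 ± 8.36 CPM) and to *Pknox1*, a relative of MEIS1 (46.7 ± 2.47 against 40.2 ± 6.13 CPM; SD, n = 3 each). Replicate 1 was lowest in both groups for 12 of these 14, against 28.7% of all genes. Of the 14, 4 differed between replicate numbers, *Prdm16*, *Etv6*, *Fli1* and *Gata1* (limma adjusted p 0.034 to 0.046), against 5.59% of all genes. The first 3 were low and *Gata1* was high in replicate 1.

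Among the 20 partners 19 were tested, 16 were lower (against 60.9% of all genes), 0 passed and the median was -0.13. *Hoxa5*, of the HOXA cluster, had the smallest p, at 1.85, 3.49 and 4.41 CPM in control and 1.36, 1.18 and 1.92 CPM in MaeaCsf1r-Cre replicates, a log2 fold change of -0.73 (unadjusted p = 0.036, adjusted p = 0.967). *Pbx2* (-0.28) and *Tcf4* (-0.30), an E protein gene, followed, while *Cbfb*, the partner of RUNX1, had a log2 fold change of -0.17 and *Ldb1*, that of LMO2, of -0.07. The 8 co-repressors that GFI1 and GFI1B or their complexes use were all tested, with 6 lower, 0 passing and a median of -0.08. *Kdm1a* had a mean of 82.4 ± 1.82 CPM (control) and of 82.1 ± 5.38 CPM in MaeaCsf1r-Cre HSCs, and the smallest p of this list belonged to *Hdac2*, *Rcor1* and *Ctbp2*, with log2 fold changes of -0.11, -0.15 and -0.18.

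Of the 14 target genes 13 were tested, 9 were lower (against 60.9% of all genes) and 0 passed, with a median of -0.28. *Cebpa*, the myeloid factor gene that RUNX1 activates, was at 6.19, 2.70 and 3.21 CPM in control and at 0.722, 1.79 and 1.51 CPM in MaeaCsf1r-Cre replicates, below every control library (log2 fold change -1.07, unadjusted p = 0.011, limma adjusted p = 0.967). *Csf1r*, a RUNX1 target too, had a log2 fold change of -1.57 and likewise did not overlap. These were 2 of the 13, against 6.06% of all genes lower without overlap, and *Runx1* itself had a log2 fold change of -0.18. The macrophage marker *C1qb* was also lower, at 3.79 to 8.98 CPM in control and at or below 0.474 CPM in MaeaCsf1r-Cre libraries. The part of macrophage RNA in the value of *Csf1r* was not tested. *Kit*, a target of the TAL1 complex, was at 551, 700.1 and 573 CPM in control and at 393, 450 and 562 CPM in MaeaCsf1r-Cre replicates (-0.38, unadjusted p = 0.051). *Tek*, an angiopoietin receptor gene, was low, and *Epor* and *Klf1* were high, in replicate 1 of both groups (limma adjusted p for the replicate number 0.030 to 0.042). *Il7r* was not tested, with at most 0.394 CPM.

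The gene whose 6 values were most like those of each factor was sought among 9216 genes with a mean CPM of at least 10, by the root mean square difference of centred log2 values over the 6 libraries. *Hlf* was nearest to *Eya1* (0.075), *Mecom* to *Maged2* (0.062), *Meis1* to *Bex1* (0.050), *Erg* to *Itm2a* (0.0495), *Lmo2* to *Ptprc* (0.035) and *Runx1* to *Grcc10* (0.031). *Eya1* was at 10.4, 23.5 and 16.2 CPM in control and at 4.82, 8.86 and 15.7 CPM in MaeaCsf1r-Cre replicates, below its control in 3 of 3 pairs where *Hlf* was in 2. *Gfi1* was nearest to *Prtn3* (0.102), a granule protease gene of granulocyte precursors, at 73.8, 86.6 and 48.9 CPM in control and 41.8, 72.6 and 71.5 CPM in MaeaCsf1r-Cre replicates. *Gata2* was nearest to *Galt* (0.040), *Gfi1b* to *Isca2* (0.079) and *Tal1* to *Rec8* (0.051). With 6 libraries and so many candidates these are descriptions of likeness only.

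Some reads may belong to neighbouring transcripts, since the sources used here do not state that strand was counted. *Gm16140* lies antisense over 896 bases of *Meis1* exons and was at 3.31 to 8.93 CPM, against 112 to 304 CPM for *Meis1*. *Gm37818* lies on the same strand over 1029 bases of *Meis1* exons, where strand would not separate them, and was at 0.394 to 1.57 CPM. Antisense neighbours of *Mecom*, *Gfi1* and *Runx1* were at 0.249 CPM or less.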

How the data were processed

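RNA of sorted HSCs was sequenced by the authors from SMART-Seq v4 and Nextera XT libraries, single-end. Per the labels and methods, reads were trimmed (Trim Galore), aligned to mm10 (STAR 2.5.3a) and quantified to Ensembl transcripts in Partek. The deposited values are CPM per gene symbol, with 0.0001 added, which was subtracted. Steps between low CPM values gave 32966000 to 60933000 reads behind the scaling, so 3 reads are 0.0492 to 0.0910 CPM (counting error only). As 72.8 to 75.2% of low values were whole reads within a tolerance of 0.02, counts were not recovered and no count model was used.

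The 12955 genes at a CPM of 1 or more in 3 or more libraries were compared on log2(CPM + 1), so folds of low genes are understated, with limma 3.58.1 (R 4.3.3; moderated test with mean-variance trend, two-sided, Benjamini-Hochberg, threshold 0.05). Deviations from the group mean correlated between same-numbered libraries (Pearson's r across genes 0.627, 0.523 and 0.397), although no source states a pairing, so the replicate number was also used as a block. The members and gene lists were chosen with earlier results of these data known. The genes named are the 10 factors, *Maea*, *Csf1r*, the partners in the ratios, and from each list those with an adjusted p under 0.05 or otherwise up to 3 with the smallest p; other genes were named after their values were seen. Alternatives were another pseudocount, filters, scalings, no trend, corrections for length and GC content, the block and left-out libraries. Positions and lengths come from GENCODE (GRCm38), promoters from RefSeq. The longest transcript of a gene was the longest protein-coding one where the gene had any. Python 3.11.15, pandas 2.3.3, numpy 2.4.6 and matplotlib 3.10.9 were used. The fit without the block was tested on simulated data. Their noise was independent between libraries, so the test does not cover the likeness of same-numbered libraries. Values of 2 genes of the lists are not reported here.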

Additional observations from a re-analysis of the deposited data

How the results depend on the processing

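Of the 10 factors 0 had an adjusted p under 0.05 in any of the 17 alternative settings (16 for *Gfi1*, which a filter at a CPM of 10 removes; adjusted p of 0.198 or more), and *Hlf*, *Mecom*, *Meis1*, *Runx1*, *Tal1* and *Lmo2* kept their direction in all of them. *Runx1* came nearest to 0 with the length correction, at -0.016. *Gata2* turned to 0.057 with the length correction, with and without the replicate block, to 0.0049 with the GC correction and to 0.028 without replicate 1 of both groups, where *Gfi1* turned to 0.087. Leaving out 1 library gave -1.20 to -0.34 for *Hlf*, -0.90 to -0.18 for *Mecom*, -0.68 to -0.03 for *Meis1*, -0.31 to -0.03 for *Runx1*, 0.0043 to 0.25 for *Tal1*, -0.45 to -0.12 for *Lmo2*, -0.59 to -0.03 for *Gfi1*, -0.20 to 0.13 for *Gata2*, -0.11 to 0.38 for *Gfi1b* and -0.56 to 0.065 for *Erg*. For the ratios the same ranges were -0.35 to 0.15 for *Erg* to *Fli1*, -0.0037 to 0.53 for *Tal1* to *Lyl1*, -0.14 to 0.14 for *Runx1* to *Cbfb* and -0.11 to 0.11 for *Mecom* to *Prdm16*, while the other 3 ratios given above kept their direction, and *Mecom* to *Prdm16* was 0.0022 with a pseudocount of 0.1. The causes were not tested. Over all genes 1 passed, and also 1 with the replicate block, but 0 with a filter at a CPM of 10 (302 at an unadjusted p under 0.05, limma), 17 with the length correction and the replicate block, and 0 without replicate 1 of both groups (667 unadjusted). It was 0 to 3 with 1 library left out. The replicate block raised the genes with an unadjusted p under 0.05 from 517 to 1805 and changed no call on the factors. The fewest reads behind a value of any factor were about 144.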
